A study of Mus musculus with 6 samples.

Results

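The genes described here, 10 of the 15280 in the deposited table, take up fatty acids, coat the lipid droplet and release fat from it in adipocytes. They are the rows with the gene symbols *Lpl*, *Cd36* and *Fabp4* (uptake), *Plin1*, *Plin4* and *Cidec* (droplet coat), and *Pnpla2*, *Lipe*, *Ces1d* and *Adrb3* (lipolysis), and all 10 were found. RNA-Seq libraries were made from 3 mammary tumors (T11035, T11640 and T9232) and from the normal gland next to each tumor (M11035, M11640 and M9232), so that every mouse gave a T and an M library. Both tissues came from transgenic BK5.ATF3 females, in which the bovine keratin 5 promoter drives *ATF3*, a stress-induced transcription factor, in basal epithelial cells. The mice had each raised a litter, tumors arose at 6 to 12 months of age, and tissue was taken when a tumor measured 1.5 cm. No wild-type gland was in the comparison.

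An adipocyte stores triglyceride in a large lipid droplet. Lipoprotein lipase (*Lpl*) frees fatty acids from circulating lipoproteins, *Cd36* carries them across the plasma membrane and *Fabp4* binds them in the cytosol. Perilipins coat the droplet and hold lipases away from it, and *Cidec* helps small droplets to merge. When catecholamines act on the β3-adrenergic receptor (*Adrb3*), adipose triglyceride lipase (*Pnpla2*) removes the first fatty acid from triglyceride and hormone-sensitive lipase (*Lipe*) the next. In the mammary gland, adipocytes make up most of the fat pad into which the epithelial ducts grow.

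All 10 genes fell in the tumors, and for each of them the 3 tumors lay below the 3 glands. The decrease was smallest for *Lipe*, to 10.1% of the mean gland level, and greatest for *Ces1d*, to 0.261%. Tumor means were 3.55% to 4.38% of the gland means for *Lpl*, *Cd36* and *Fabp4*, against 0.567% to 2.08% for *Plin1*, *Plin4* and *Cidec*. Summed over the 10 genes, the glands held 8410 to 14836 CPM and the tumors 322 to 526 CPM. CPM is the number of fragments on a gene, scaled by the authors to the effective size of each library. In bulk tissue, fewer cells of a type and less RNA per cell cannot be told apart.

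A gene was called at an adjusted p (FDR) of at most 0.05 and an FC of at least 2, with limma's moderated test on log2(CPM + 0.5). Of all 15280 genes, 13.7% were called lower and 14.5% higher, and in 26.3% the 3 tumors were all below the 3 glands. The median log2 fold change, always tumor minus gland, was -5.09 over the 10 genes and -0.0028 over all genes. Of the 10, 7 were among the 100 lowest log2 fold changes of the table and 9 among the 200 lowest. Each of the 10 was also called lower under all 14 alternative settings, including edgeR and DESeq2 on the recovered fragments and the omission of any library.

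Promoter sequences were taken from RefSeq (GRCm38.p6) to show the start regions of droplet and uptake genes that fell together. The RefSeq table held 8 promoters for 6 of the 10 genes (*Cd36*, *Cidec*, *Lipe*, *Plin1*, *Plin4* and *Pnpla2*), each with 250 bases before and 50 after the start site. The promoters of *Plin1* (chr7:79732727-79733026, minus strand), *Cidec* (chr6:113434715-113435014, minus strand) and *Cd36* (chr5:17835847-17836146, minus strand) are given from 5′ to 3′. Capitals mark matches to the motifs searched.
Plin1: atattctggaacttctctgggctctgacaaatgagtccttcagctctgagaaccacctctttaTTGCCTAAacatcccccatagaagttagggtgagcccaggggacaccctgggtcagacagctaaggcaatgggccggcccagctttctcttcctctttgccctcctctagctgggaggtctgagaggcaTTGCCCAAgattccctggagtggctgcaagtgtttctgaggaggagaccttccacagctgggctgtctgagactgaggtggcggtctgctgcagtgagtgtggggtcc
Cidec: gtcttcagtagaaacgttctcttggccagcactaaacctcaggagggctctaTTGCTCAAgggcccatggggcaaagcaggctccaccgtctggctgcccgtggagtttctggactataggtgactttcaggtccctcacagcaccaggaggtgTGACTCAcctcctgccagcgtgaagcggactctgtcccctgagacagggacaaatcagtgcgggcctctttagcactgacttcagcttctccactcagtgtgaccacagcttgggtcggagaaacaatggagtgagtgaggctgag
Cd36: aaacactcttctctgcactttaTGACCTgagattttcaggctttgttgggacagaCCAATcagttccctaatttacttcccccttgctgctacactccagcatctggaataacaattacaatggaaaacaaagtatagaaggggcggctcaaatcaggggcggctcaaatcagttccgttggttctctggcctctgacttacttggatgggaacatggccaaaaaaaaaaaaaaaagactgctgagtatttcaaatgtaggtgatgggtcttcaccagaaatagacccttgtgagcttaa

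On either strand, the core of a C/EBP site (TTGCNNAA; C/EBP proteins are transcription factors of adipocyte differentiation) occurred in *Plin1*, from bases -187 and -58, and in *Cidec*, from base -198. The same letters occurred in 10.8% of the 32851 mouse promoters of this length. An AP-1 site (TGANTCA, the motif of Jun, Fos and ATF dimers) was found in *Cidec* from base -96, and in 7.81% of all promoters. The nuclear receptor hexamer AGGTCA was found in *Cd36*, as TGACCT from base -228, and in 16.3% of all promoters. Its direct repeat with 1 base between, AGGNCANAGGNCA, the kind of site that PPARγ binds, was in none of these windows and in 0.381% of all promoters. *Cd36* and *Plin4* had a CCAAT box (CCAAT, 37.4% of all promoters), and *Lipe* an E-box (CACGTG, 7.15%). Neither a CRE (TGACGTCA, 1.79%) nor a TATA box (TATAAA, 13.6%) was found in the 8 promoters. The hexamer is contained in some forms of the repeat, and no 2 matches in the printed promoters overlapped.

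Among the uptake genes, *Lpl* (mm9 chromosome 8, 71404390 to 71431347) had 2796, 5437 and 3099 CPM in glands M11035, M11640 and M9232 and 93.6, 198 and 111 CPM in the matching tumors. The highest gland and the highest tumor came from the same mouse, and the tissues lay far apart. The tumor level was 3.35%, 3.65% and 3.57% of the gland level within the 3 mice, so the decrease was nearly the same size in each. The log2 fold change was -4.82 (standard error 0.32, adjusted p = 1.41e-05, limma), or 28.2-fold between the means.

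*Cd36* (chromosome 5, 17287508 to 17394777) had 1488, 3139 and 2056 CPM in the glands and 61.4, 117 and 115 CPM in the tumors. Its log2 fold change was -4.50 (standard error 0.32, adjusted p = 1.81e-05, limma). *Fabp4* (chromosome 3, 10204347 to 10208576) had 3795, 4979 and 2458 CPM in the glands and 146, 186 and 132 CPM in the tumors. All 3 uptake genes thus remained well detected in every tumor, with at least 330 fragments each. The log2 fold change of *Fabp4* was -4.55 (standard error 0.25, adjusted p = 5.97e-06, limma).

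**Figure D1:**
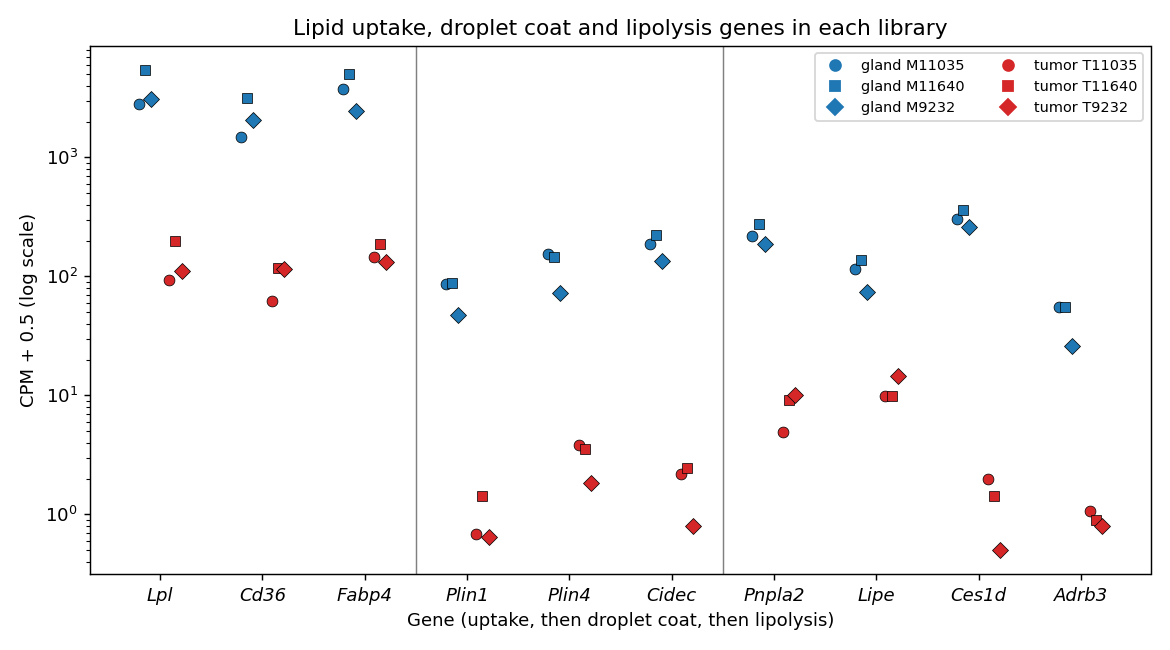
CPM + 0.5 (log scale) of the 10 genes in each library, with glands in blue and tumors in red and a marker shape for each mouse. For every gene the 3 tumors are below the 3 glands, and the tumor points of *Plin1*, *Ces1d* and *Adrb3* are close to the lowest value the axis can show.

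In the droplet coat, *Plin1* (chromosome 7, 86866050 to 86877662), the perilipin that gates lipase access in adipocytes, had 86.4, 88.0 and 46.6 CPM in the glands. Its tumor levels of 0.186, 0.917 and 0.150 CPM correspond to 1, 7 and 1 fragments. Most of the remaining fragments were thus in T11640. The glands held 1299 fragments and the tumors 9, a 155-fold lower level for the summed fragments (95% counting interval 81.6 to 340). The log2 fold change was -6.38 (standard error 0.38, adjusted p = 7.62e-06, limma). Values near 0 are compressed by the added 0.5, and the same fold change was -7.41 with 0.1 added and -5.70 with 1 added.

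*Cidec* (chromosome 6, 113374628 to 113385754) had 188, 223 and 135 CPM in the glands and 1.67, 1.97 and 0.300 CPM in the tumors, where 9, 15 and 2 fragments were counted. T9232 was the lowest tumor by a wide margin, and the tissues did not overlap. The log2 fold change was -6.78 (standard error 0.41, adjusted p = 9.00e-06, limma), and -6.27 without T9232.

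*Plin4* (chromosome 17, 56240014 to 56249225), a perilipin of small and growing droplets, had 152, 146 and 72.4 CPM in the glands and 3.35, 3.01 and 1.35 CPM in the tumors. Here M9232 was the lowest gland and T9232 the lowest tumor, and the tumor kept 2.20%, 2.07% and 1.86% of the gland level within the mice. The log2 fold change was -5.33 (standard error 0.37, adjusted p = 1.61e-05, limma). Exons of *Plin4* overlap those of *Hdgfrp2* in the annotation. *Hdgfrp2* had 7.47 to 17.5 CPM over the 6 libraries and a log2 fold change of -0.42 that was not called.

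The lipolysis genes differed most among themselves. *Ces1d* (chromosome 8, 95689967 to 95721737), a carboxylesterase that hydrolyses triglyceride in adipocytes, had 302, 359 and 260 CPM in the glands and 1.49, 0.917 and 0 CPM in the tumors. The count of 0 in T9232 allows up to 0.450 CPM (3 fragments), and the other tumors held 8 and 7 fragments. Its log2 fold change was -8.09 (standard error 0.45, adjusted p = 5.95e-06, limma), the fourth lowest of the table. The summed fragments were 399-fold lower (95% counting interval 242 to 713). The closest transcripts of other *Ces1* genes were at most 83.1% identical over at least 300 bp.

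*Adrb3* (chromosome 8, 28336248 to 28340060) had 54.9, 55.3 and 25.3 CPM in the glands. It was at or under the floor of 3 fragments in every tumor, with 3, 3 and 2 fragments (0.558, 0.393 and 0.300 CPM). The summed fragments were 106-fold lower (95% counting interval 53.7 to 247), and the log2 fold change was -5.56 (standard error 0.34, adjusted p = 8.66e-06, limma). Whether *Adrb3* RNA differed among the tumors was not detectable at this depth.

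*Pnpla2* (chromosome 7, 148641097 to 148646642) had 218, 275 and 186 CPM in the glands and 4.47, 8.65 and 9.59 CPM in the tumors. *Lipe* (chromosome 7, 26164546 to 26183729) had 116, 136 and 73.3 CPM in the glands and 9.30, 9.44 and 14.1 CPM in the tumors. For these lipases T9232 was the highest tumor and M9232 the lowest gland. T9232 was the lowest tumor for 6 members: *Fabp4*, *Plin4*, *Cidec* and, at few fragments, *Plin1*, *Ces1d* and *Adrb3*. Within the mice, the *Lipe* level of the tumor was 8.04%, 6.95% and 19.2% of that of the gland, and the *Pnpla2* level 2.05%, 3.15% and 5.16%. The log2 fold changes were -4.86 for *Pnpla2* (standard error 0.28, adjusted p = 6.97e-06, limma) and -3.23 for *Lipe* (standard error 0.26, adjusted p = 3.72e-05, limma). *Lipe* shares exon bases with *4732471J01Rik*, which had 0.813 to 2.46 CPM in the 6 libraries and a log2 fold change of -0.24 that was not called.

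Glands differed in the same way for many of the 10 genes. M11640 was the highest gland for 9 of them and M9232 the lowest for 8. The coefficient of variation over the glands ran from 16.3% for *Ces1d* to 38.3% for *Lpl*. Over the tumors it ran from 18.2% for *Fabp4* to 104% for *Plin1*, whose tumor level rested on 9 fragments.

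Levels of different genes were compared as mean CPM per kilobase of exon in the mm9 annotation. The lengths were those of all merged GENCODE exons of a gene, whereas fragments were counted on RefSeq genes. The order of the genes depends on these lengths. In the glands, *Fabp4* stood first with 5877 ± 1980 (SD, n = 3), followed by *Cd36* (567 ± 214) and *Lpl* (555 ± 212), which did not differ beyond their spread. *Ces1d* (130 ± 21.1), *Cidec* (98.0 ± 23.9) and *Pnpla2* (74.9 ± 14.8) came next, and the range of mean ± SD of each overlapped that of its neighbor. Then came *Plin1* (38.5 ± 12.2), *Lipe* (24.0 ± 7.06), *Plin4* (21.5 ± 7.73) and *Adrb3* (15.6 ± 5.95), which overlapped in the same way. In the tumors the first 3 places were unchanged, with *Fabp4* at 243 ± 44.2. *Ces1d* moved from place 4 to place 8 (0.339 ± 0.317) and *Lipe* from place 8 to place 5 (2.42 ± 0.603). The tumor range of *Ces1d* overlapped those of *Cidec* (0.708 ± 0.479), *Plin4* (0.447 ± 0.186) and *Plin1* (0.218 ± 0.226), so the order among them was not resolved. *Lipe* and *Pnpla2* (2.51 ± 0.903) were then level with each other.

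**Figure D2:**
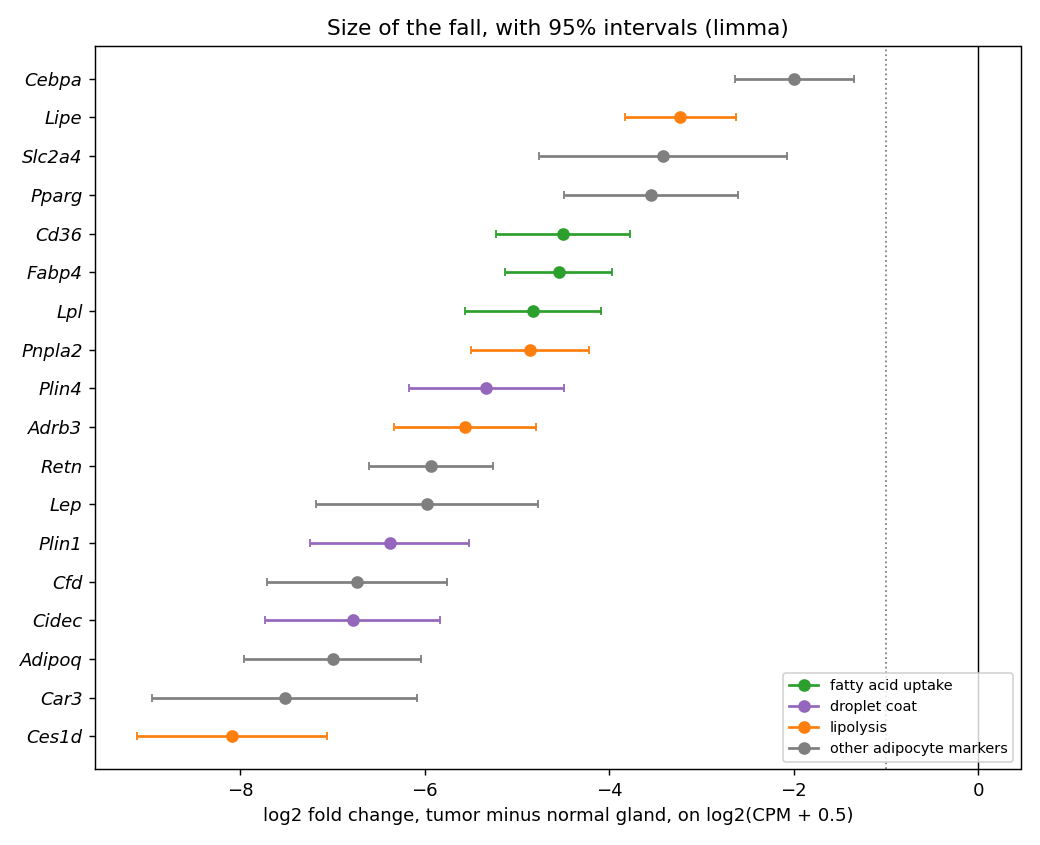
Log2 fold change (tumor minus gland) of the 10 genes, colored by role, and of 8 other adipocyte markers in gray, with limma's 95% intervals and a dotted line at a 2-fold decrease. The uptake genes lie between -4.82 and -4.50, the coat genes between -6.78 and -5.33, and the lipolysis genes span -8.09 to -3.23.

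Unequal decreases among the 10 genes were measured within each library, relative to *Fabp4*, which is a member with high counts in every sample. This reference was planned for the paralogs of *Fabp4* only, and its use for the other members was not planned. Which cells held the *Fabp4* RNA of the tumors was not tested. On the log2 scale the level of *Cd36* minus that of *Fabp4* was -1.35, -0.67 and -0.26 in the glands and -1.24, -0.67 and -0.20 in the matching tumors. The mice differed in this ratio while the tissues overlapped, and the difference between tissues was 0.05 (95% interval -0.75 to 0.86, limma). With the gene's own 4 residual degrees of freedom the interval was -1.17 to 1.27, which includes an FC of 2 in either direction. For *Lpl* the difference was -0.27 (95% interval -1.08 to 0.53) and for *Pnpla2* -0.31 (-1.16 to 0.54). For *Plin4* it was -0.78 (95% interval -1.68 to 0.11), and the ratios of the tissues did not overlap. Within the mice the *Plin4* difference was -0.62, -0.64 and -1.09, and with the mouse as a block its interval was -1.38 to -0.18 (adjusted p = 0.0107, limma), under the FC of 2 that a call needs.

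*Ces1d*, *Cidec*, *Plin1* and *Adrb3* fell more than *Fabp4*, with differences in log2 fold change of -3.54, -2.23, -1.83 and -1.01. The size of these differences depends on the added 0.5, which compresses tumor values near 0, and other pseudocounts were not tried here. Between the means, these genes were 383-, 138-, 176- and 108-fold lower in the tumors, against 24.2-fold for *Fabp4*. *Lipe* fell less, with a difference of 1.32 (95% interval 0.46 to 2.18). For these 5 genes the ratios of the tumors and the glands did not overlap, and intervals from each gene's own 4 residual degrees of freedom also excluded 0. The call of *Lipe* was lost without T9232 (1.03, adjusted p = 0.0518, limma), and that of *Adrb3* without M11035, T11035, T11640 or T9232 (-1.16 to -0.86). Of all genes, 0.242% fell more than *Fabp4* and 98.4% fell less or rose. Every row of this fit carries the error of *Fabp4*, and the exact permutation test of 3 against 3 libraries cannot go below p = 0.1, the value it gave for each of the 5.

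**Figure D3:**
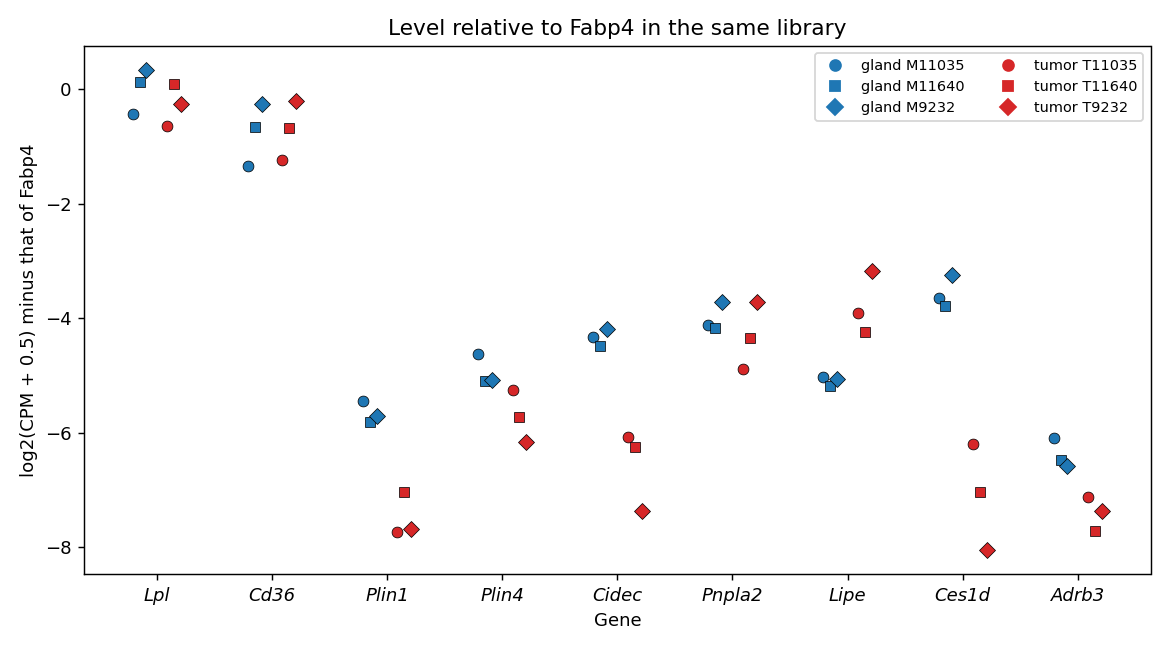
Log2(CPM + 0.5) of 9 genes minus that of *Fabp4* in the same library, with glands in blue and tumors in red. *Lpl*, *Cd36* and *Pnpla2* overlap between tissues, *Plin1*, *Plin4*, *Cidec*, *Ces1d* and *Adrb3* are lower in the tumors, and *Lipe* is higher.

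*Adipoq*, the adipocyte hormone adiponectin, was the reference planned for the members. It had 353, 587 and 299 CPM in the glands and 3.72, 4.06 and 1.05 CPM in the tumors, and its log2 fold change was -7.00. In all, 6 genes (*Lpl*, *Cd36*, *Fabp4*, *Plin4*, *Pnpla2* and *Lipe*) fell less than *Adipoq*, by 1.67 (*Plin4*) to 3.77 (*Lipe*) on the log2 scale. *Cidec* (0.22), *Plin1* (0.62), *Adrb3* (1.43) and *Ces1d* (-1.09) were not called different from it, so 0 of 10 were called to fall more. With 0.1 added, the differences of *Cidec* (-0.062) and *Plin1* (-0.18) changed sign and were again not called. Only 0.00654% of all genes fell more than *Adipoq* and 99.8% fell less or rose, so the count of 6 is not a result about these genes. With the mouse as a block, *Ces1d* was called to fall more (adjusted p = 0.0259, limma). *Adrb3* was called to fall less with the block (adjusted p = 0.00621, limma). Its difference depends on the constant added to CPM, which compresses its tumor values of 0.300 to 0.558 CPM. The *Adrb3* difference was 0.84 with 0.1 added (not called, adjusted p = 0.333, limma) and 1.81 with 1 added (called, adjusted p = 0.00645, limma). Between the means, *Adrb3* was 108-fold lower in the tumors and *Adipoq* 140-fold. The call of *Plin4* was lost without M11640, M9232 or T11035 (adjusted p = 0.0545 to 0.0917, limma), *Ces1d* was called without T9232 (-1.01) and *Adrb3* without T11640 (1.73). Against the mean of 8 adipocyte markers 3 of 10 were called, with *Lipe* falling less and *Ces1d* and *Cidec* falling more.

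Paralogs of the members did not all follow them. Relative to *Plin1*, *Plin2* (4.36), *Plin3* (6.30) and *Plin5* (4.37) fell less or did not fall on the log2 scale, and *Plin4* (1.05) was not called, but it was called with the mouse as a block (adjusted p = 0.0130, limma) and without T11640 (1.28). Of all genes, 99.6% fell less than *Plin1* or rose. *Plin2*, the perilipin of most cell types, had 223, 326 and 468 CPM in the glands and 49.1, 90.6 and 113 CPM in the tumors. It fell by 2.02 on the log2 scale (adjusted p = 0.00193, limma). *Plin3*, which is also widespread, had 7.32, 8.09 and 9.03 CPM in the glands and 7.07, 8.13 and 7.79 CPM in the tumors. The tissues overlapped for *Plin3*, and its log2 fold change was -0.08 (95% interval -0.55 to 0.39). *Plin5*, a perilipin of oxidative tissues, had 46 fragments in the glands and 5 in the tumors, and it was called lower (adjusted p = 0.00253, limma).

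*Fabp5*, the epidermal fatty acid-binding protein, rose where *Fabp4* fell. It had 120, 190 and 144 CPM in the glands and 543, 681 and 680 CPM in the tumors. The log2 fold change was 2.09 (standard error 0.19, adjusted p = 6.53e-05, limma). Every tumor was above every gland. The level of *Fabp5* minus that of *Fabp4* moved from -4.59 ± 0.457 (SD, n = 3) in the glands to 2.04 ± 0.278 in the tumors on the log2 scale. The heart form *Fabp3* fell by 4.94 on the log2 scale, and the difference from *Fabp4* was -0.40 (95% interval -1.39 to 0.59), or -1.06 and called without M11640 (adjusted p = 0.0353, limma). *Fabp3* had only 4, 5 and 3 fragments in the tumors, so the added 0.5 compresses its fall. Between the means, *Fabp3* was 61.0-fold lower in the tumors, against 24.2-fold for *Fabp4*.

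A list of 38 other genes of uptake, droplets and lipolysis was read in the same way, and 36 of them were in the table. Of the 36, 25 were called lower, 4 higher and 7 were not called, with a median log2 fold change of -1.78. This is a smaller decrease than the -5.09 of the 10 members, but members and list were chosen with earlier results of these data known. Over all genes, 13.7% were called lower and 14.5% higher.

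Among 12 uptake genes, 7 fell, *Fabp5* rose and 4 were not called. The lowest was *Fabp3*. *Angptl4*, a secreted inhibitor of *Lpl*, fell from 36.0, 60.9 and 68.0 CPM to 7.63, 11.5 and 14.2 CPM, a log2 fold change of -2.25. *Gpihbp1*, which holds *Lpl* on the capillary wall, had 8.13, 7.76 and 7.52 CPM in the glands and 3.16, 1.70 and 6.59 CPM in the tumors. Its log2 fold change of -1.11 was not called (adjusted p = 0.0535, limma), but it was called with the mouse as a block (0.0486), with columns rescaled to the same total (0.0479) and without T9232 (0.00966). *Lmf1*, needed for *Lpl* to mature, had a log2 fold change of -0.43 (95% interval -1.17 to 0.32). *Scarb1*, a relative of *Cd36*, fell by 1.06, a call that was lost without M9232 (-0.99) or T11640 (-0.96). *Cav1*, a caveolar coat protein that fell by 1.16, lost its call without M11640 (-0.77), T11035 (-1.04) or T11640 (-1.07).

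Among 8 droplet genes in the table, 5 fell, *Hilpda* rose, and *Plin3* and *Rab18* were not called. *Bscl2*, the seipin that helps droplets form, fell by 1.12, a call lost without M11640 or T11035 (both -0.97). *Cidea*, a relative of *Cidec*, fell by 4.69 from 36.0, 32.4 and 24.2 CPM to 0.558, 0.655 and 0.899 CPM. *Hilpda*, a hypoxia-induced droplet protein that inhibits *Pnpla2*, rose from 13.0, 8.09 and 12.9 CPM to 29.0, 32.6 and 71.2 CPM. All tumors were above all glands for *Hilpda*, and its log2 fold change was 1.83 (standard error 0.35, adjusted p = 0.00340, limma).

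Among 16 lipolysis genes, 13 fell, 2 rose and 1 was not called. *Ces1f*, a neighbor of *Ces1d* on chromosome 8, was the lowest at -5.86 and kept 5 fragments in all tumors against 806 in the glands. *Pnpla3*, a relative of *Pnpla2*, fell by 4.90. The regulators of *Pnpla2* did not move together: its inhibitor *G0s2* fell by 2.28, and its coactivator *Abhd5* had a log2 fold change of -0.45 (95% interval -1.02 to 0.11). *G0s2* had 102 fragments in the glands and 15 in the tumors, a 7.32-fold lower level (95% counting interval 4.24 to 13.6), and the added 0.5 compresses its fall. *Adrb1*, another β-adrenergic receptor, fell by 2.09 on the log2 scale, from 96 fragments in the glands to 14 in the tumors. The added 0.5 also compresses the fall of *Adrb1*, whose summed fragments were 7.38-fold lower (95% counting interval 4.19 to 14.0). The difference from the log2 fold change of *Adrb3* was not tested.

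Both genes that rose encode receptors that restrain lipolysis in adipocytes. *Adra2a*, the α2A-adrenergic receptor, had 1.63, 1.16 and 0.958 CPM in the glands and 7.26, 8.13 and 6.59 CPM in the tumors. It rose by 2.18 on the log2 scale (adjusted p = 0.000360, limma). *Niacr1*, the nicotinic acid receptor (also *Hcar2*), had 4.88, 9.08 and 6.02 CPM in the glands and 11.7, 13.8 and 28.9 CPM in the tumors. Its log2 fold change was 1.31 (adjusted p = 0.0199, limma), and the call was lost without M11035 (1.13, adjusted p = 0.0561) or T9232 (0.93, adjusted p = 0.0582). Another receptor that restrains lipolysis, *Gpr81* (also *Hcar1*), fell by 5.01, and the adenosine receptor *Adora1* by 4.63. Receptors of this kind thus moved in both directions.

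**Figure D4:**
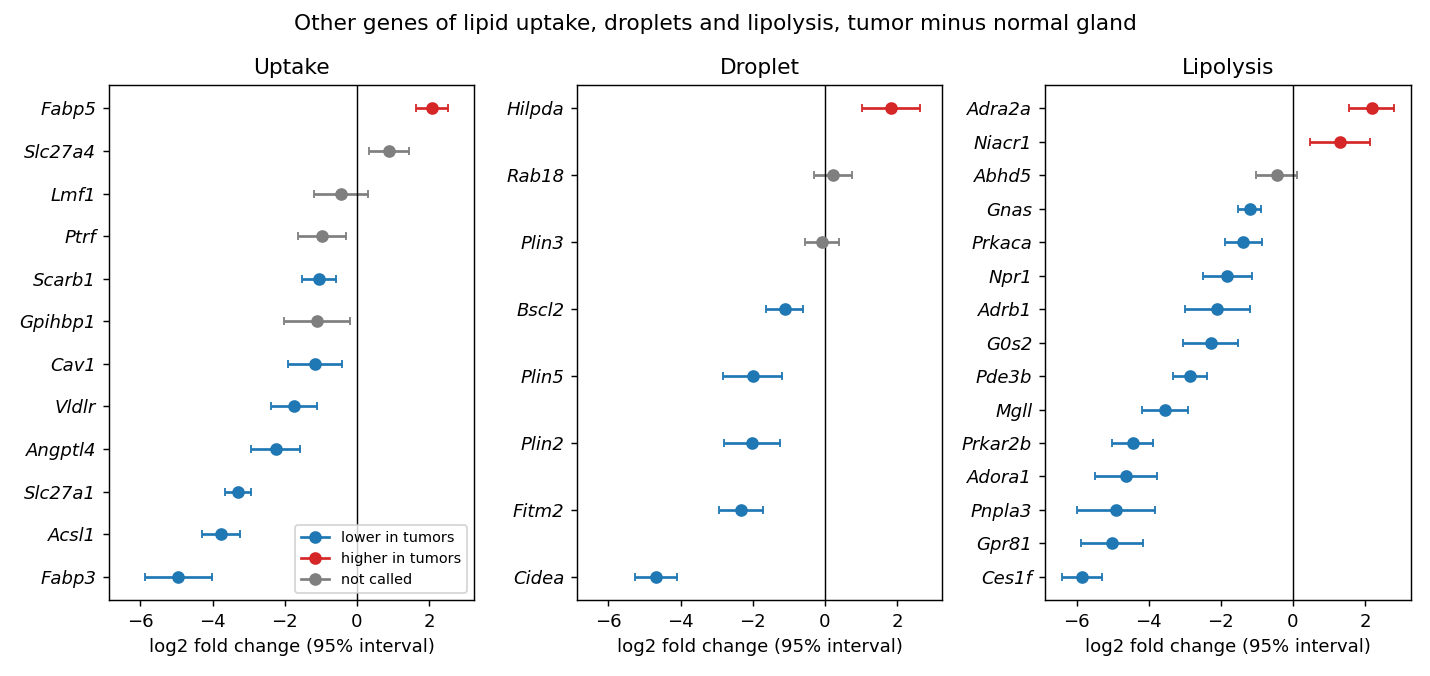
Log2 fold change (tumor minus gland) with limma's 95% intervals for other genes of fatty acid uptake, droplets and lipolysis, with 1 gene of the lipolysis list not shown. Blue points were called lower, red points higher (4 genes: *Fabp5*, *Hilpda*, *Adra2a* and *Niacr1*) and gray points were not called (7 genes).

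Markers of other cell types moved with the same comparison. All 8 adipocyte markers fell, from -1.99 for *Cebpa* to -7.52 for *Car3*, and their sum went from 2708 to 5137 CPM in the glands to 44.1 to 67.5 CPM in the tumors. Of 8 epithelial markers 7 rose, most of all *Krt14* (5.75) and least *Epcam* (0.56, not called), and their sum went from 244 to 527 CPM to 2468 to 2858 CPM. All 5 milk protein genes fell (*Csn2* lowest at -5.79, *Lalba* highest at -3.57 and listed at 0 in all tumors), with a sum of 40793 CPM in M9232 against 2274 and 4583 CPM in M11035 and M11640. Of 5 brown fat markers 4 fell, with *Ucp1* lowest at -8.18 (432, 299 and 118 CPM in the glands, 2 to 3 fragments in each tumor) and *Dio2* highest at 0.37. Of 6 endothelial markers 2 fell (*Tek* lowest at -1.35, *Emcn* highest at 0.28), and of 7 macrophage markers only *Itgam* rose (1.52), with *Lyz2* lowest at -0.20 and overlapping sums of 1104 to 3924 CPM and 1337 to 2597 CPM. The part of these cell types in the changes, and in the *Fabp4* level used as a reference, was not tested.

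Skeletal muscle, which also expresses *Lpl*, *Cd36* and *Fabp3*, was present unevenly. The sum of 5 muscle markers was 3679 CPM in M11035, 1455 CPM in M11640 and 4.24 CPM in M9232, against 7.08 to 13.8 CPM in the tumors, and their log2 fold changes ran from -6.80 (*Myh4*, not called) to -3.17 (*Tnnt3*, not called), with 1 of 5 called lower. M9232, with the lowest muscle sum of the glands, had 3099 CPM of *Lpl*, 2056 CPM of *Cd36* and 60.2 CPM of *Fabp3*. The part of muscle in the changes was not tested.

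The 5 genes outside all lists that lay nearest to the mean profile of the 10 members over the 6 libraries were *Fasn*, *Abcd2*, *Rgs7*, *Dhdh* and *Elovl6*. The distance was Euclidean on gene-centered log2(CPM + 0.5), and was 0.300 for *Fasn* and 0.729 for *Elovl6*, with a Pearson r of 0.999 and 0.994 to that profile. These points share 6 libraries in 2 tissue groups. *Fasn*, fatty acid synthase, had 2360, 3853 and 1856 CPM in the glands and 51.7, 71.3 and 47.4 CPM in the tumors. *Elovl6* elongates fatty acids, and *Abcd2* carries them into peroxisomes.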

How the data were processed

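RNA-Seq libraries of 3 tumors and 3 adjacent normal glands were analysed, and each library was assigned to its tissue from the labels. Per the paper's methods and the submitters' processing notes, the authors mapped read pairs to mm9 with TopHat2 2.0.3, counted fragments per RefSeq gene with HTSeq 0.5.3p9, removed genes under a minimum total and computed CPM with edgeR 3.6.1. The deposited values are a normalized signal, CPM on edgeR's effective library size. Whether counting used strand was not given in the sources used here, so reads of genes with overlapping exons cannot be told apart. In every library, 100% of values were whole multiples of 1 step (tolerance 1e-06 fragments), which gave back the fragments: 4750989 to 7806908 per library, where 3 fragments equal 0.393 to 0.610 CPM. Intervals and floors on fragments cover counting error only.

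The members and lists were chosen with earlier results of these data known. All genes were fitted by limma 3.58.1 (R 4.3.3), on log2(CPM + 0.5), with two-sided tests, the variance modelled as a trend on mean level, and Benjamini-Hochberg adjustment over 15280 genes. The design named CPM, and the unit was recorded as a signal because columns sum to unequal totals, which takes the same test. Fits relative to *Adipoq*, *Fabp4* and *Plin1* subtracted that gene in each library. Counting intervals on summed fragments were exact binomial at 95%. edgeR 4.0.16 and DESeq2 1.42.0 on the recovered fragments, other pseudocounts, a filter at a mean of 1 CPM, other scalings, the mouse as a block and the omission of each library were alternatives. The scripts were tested on simulated data. A tumor and its gland share an animal, so mouse numbers pair the samples. Their deviations from the tissue means had correlations of 0.107, 0.151 and 0.0168 over 14712 genes for mice 11035, 11640 and 9232. Pairs from different mice had correlations of -0.168 to 0.0405, so the pair of mouse 9232 did not stand out. No 2 libraries of a tissue were copies (chi-square per degree of freedom at least 13.0).

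Named genes were all members, the highest and lowest gene of each list, called risers, paralogs and known regulators, and the 5 genes nearest to the members' mean profile. The values of 1 gene under this rule are not reported here, and it is counted in its list. Positions came from GENCODE vM1 on mm9. Transcripts were compared with BLAST 2.17.0.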

Additional observations from a re-analysis of the deposited data

How the results depend on the processing

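All 10 members were called lower under each of 14 alternatives, with log2 fold changes between -9.13 (*Ces1d*, 0.1 added) and -3.04 (*Lipe*, without M11640). For the 36 listed genes of the same pathways, 23 to 27 were called lower and 3 to 5 higher. The mouse as a replicate block gave 10 members and 26 listed genes called lower and 4 higher, and among the listed genes it changed only the call of *Gpihbp1*. Relative to *Adipoq*, 6 members were called different, and 5 to 7 when a library was left out. With the replicate block 8 were called, 7 falling less and 1 more. With each gene's own 4 residual degrees of freedom, an alternative chosen after seeing the data, also 8 were called (7 and 1). Both counts include *Adrb3* as falling less, a difference that was 0.84 and not called with 0.1 added. Relative to *Fabp4* and *Plin1*, the block and the omission of libraries were also chosen after seeing the data, and the block changed only the call of *Plin4* against *Plin1*. The number falling more than *Adipoq* was 1 with 0.1 added, and 0 to 1 when a library was left out. The gene called in these settings was *Ces1d*. With the mean of the 8 adipocyte markers as the reference, 3 were called, 1 falling less and 2 more, and the differences of *Plin4* (-0.068), *Cidec* (-1.52), *Plin1* (-1.11) and *Adrb3* (-0.30) changed sign. The markers include *Cebpa*, *Pparg* and *Slc2a4*, which fell by 1.99, 3.55 and 3.42 on the log2 scale, less than *Adipoq*. Other causes were not tested. In the tumors, depth limited *Plin1*, *Adrb3* and *Ces1d* to 9, 8 and 15 fragments, so that differences among tumors in these genes were not resolved. With 3 libraries a tissue, the calls rest on variance shared across genes.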
